A study of Mus musculus with 6 samples.

Results

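The 10 genes described here are Siglech, Spib, Runx2 and Ly6d, which are known from plasmacytoid dendritic cells and their precursors, and Jchain, Mzb1, Derl3, Xbp1, Prdm1 and Sdc1, which are known from antibody-secreting plasma cells. They were chosen by symbol, as genes that the plasmacytoid dendritic and the plasma cell lineage can share, with earlier results of these data known. All 10 were found among the 16403 genes of the deposited table. The data are bulk mRNA sequencing of LSK cells, the lineage-negative, Sca-1-positive, Kit-positive fraction of mouse bone marrow that holds stem cells and early multipotent progenitors. All mice were C57BL/6. In 3 libraries the mice had ligature-induced periodontitis (LIP) for 7 days, a model in which a thread tied around a tooth gathers bacteria and inflames the gum, and in 3 libraries the mice carried no ligature (NL). Each library pooled sorted cells from 3 mice. The labels used here give no age. With 3 pools a group, p-values measure the spread between pools, not between single mice.

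Plasmacytoid dendritic cells are the main producers of type I interferon, and plasma cells are the end stage of the B lineage that secretes antibody. Each carries an enlarged secretory apparatus, and they share part of a gene programme for folding and exporting protein, although they arise by different routes. In that programme the transcription factor XBP1 acts in the unfolded protein response, and its targets include chaperones and factors that remove misfolded protein from the endoplasmic reticulum (ER). Neither mature cell belongs to the LSK fraction. In bulk RNA, more cells of a type and more RNA per cell cannot be told apart.

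The promoters of 3 secretory genes and of Siglech are shown because they differ in the ER stress motif and share an E-box. RefSeq start sites on GRCm38.p6 matched 8 of the 10 genes, and each window runs from 250 bases before the start site to 50 after it. The Prdm1 window, at chr10:44458699-44458998 (minus strand), uses a start site inside the gene, whose interval ends at 44528558. Capitals mark short motifs found by letter match on both strands, a match on the opposite strand appearing as its reverse complement. These were the ER stress response element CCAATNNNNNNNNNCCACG (its N bases left in lower case), ACGTGG of unfolded protein response elements, the E-box CAGGTG bound by E proteins, and the RUNX motif TGTGGTT. No match was found to AGGAAGT for SPI factors, GAAAGTG for the Prdm1 product or ATGCAAA for octamer factors in any of the 8 windows, which says only that these letters are not there. The windows lie at chr10:75893148-75893447 (plus strand) for Derl3, chr11:5520391-5520690 (plus) for Xbp1, chr5:88527848-88528147 (minus) for Jchain and chr7:55767934-55768233 (plus) for Siglech.
Derl3: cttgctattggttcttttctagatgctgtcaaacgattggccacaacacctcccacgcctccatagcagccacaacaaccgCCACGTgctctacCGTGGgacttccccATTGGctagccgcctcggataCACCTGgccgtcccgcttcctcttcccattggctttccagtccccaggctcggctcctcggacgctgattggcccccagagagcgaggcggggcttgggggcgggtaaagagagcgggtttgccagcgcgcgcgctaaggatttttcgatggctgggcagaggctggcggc
Xbp1: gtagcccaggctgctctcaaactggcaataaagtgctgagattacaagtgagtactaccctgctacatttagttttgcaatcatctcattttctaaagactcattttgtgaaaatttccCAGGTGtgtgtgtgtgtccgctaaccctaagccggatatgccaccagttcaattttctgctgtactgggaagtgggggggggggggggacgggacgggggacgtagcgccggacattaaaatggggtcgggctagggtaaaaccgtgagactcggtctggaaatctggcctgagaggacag
Jchain: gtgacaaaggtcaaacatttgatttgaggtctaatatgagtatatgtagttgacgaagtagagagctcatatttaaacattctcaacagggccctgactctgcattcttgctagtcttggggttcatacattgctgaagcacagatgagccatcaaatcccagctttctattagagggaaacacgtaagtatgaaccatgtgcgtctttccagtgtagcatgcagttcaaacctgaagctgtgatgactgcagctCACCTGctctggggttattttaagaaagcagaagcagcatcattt
Siglech: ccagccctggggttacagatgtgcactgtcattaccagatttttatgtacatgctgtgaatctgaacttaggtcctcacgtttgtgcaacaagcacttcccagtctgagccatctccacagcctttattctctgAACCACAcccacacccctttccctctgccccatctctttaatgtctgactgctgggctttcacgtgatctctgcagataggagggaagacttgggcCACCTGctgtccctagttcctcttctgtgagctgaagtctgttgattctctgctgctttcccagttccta
The ER stress response element stood in the Derl3 window on the opposite strand, with its base farthest from the start site 156 bases upstream. It was in 39 (0.119%) of the 32851 mouse promoter windows of this length. ACGTGG reached 169 bases upstream in Derl3 and was in 8.31% of all windows. The E-box was in 5 of the 8 windows (Derl3, Jchain, Prdm1, Siglech and Xbp1) and in 20.2% of all windows. In Siglech it reached 20 bases upstream of the start. The RUNX motif was in the windows of Runx2 and Siglech and in 5.27% of all windows. These matches are descriptions of sequence and were not tested as binding sites.

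Library totals lay between 17780853 and 18841103 estimated counts, and 12564 genes passed a filter on low counts, the 10 genes among them. All 10 had whole counts in every library. Kit and Ly6a, which encode the Kit and Sca-1 proteins of the sort, stood at 512 and 38.7 CPM in NL and 581 and 37.0 CPM in LIP, where CPM is the gene's count relative to the total of its library, scaled between libraries by TMM factors. The list of 10 was drawn up with the LIP and NL values of these libraries known, so its differences are given as descriptions without p-values, and the calls below support nothing about the list. A call is an adjusted p below 0.05 in edgeR's quasi-likelihood test over all 12564 genes. Kit was called higher in LIP (log2 fold change 0.18), and Ly6a was not called (-0.07). Of the 10 genes 7 were called higher in LIP and none lower, against 14.1% of all tested genes called higher, 15.8% called lower and 29.9% called in either direction. In the same 7 the lowest LIP library exceeded the highest NL library, as in 19.9% of tested genes, and no member had all LIP libraries below NL (21% of tested genes). No member was lower at an unadjusted p below 0.05 in edgeR, and none was called lower by DESeq2 or limma-voom either. DESeq2 called 6 members higher and limma-voom 7. The median log2 fold change of the 10 was 0.45, beside -0.00072 over all tested genes.

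**Figure D1:**
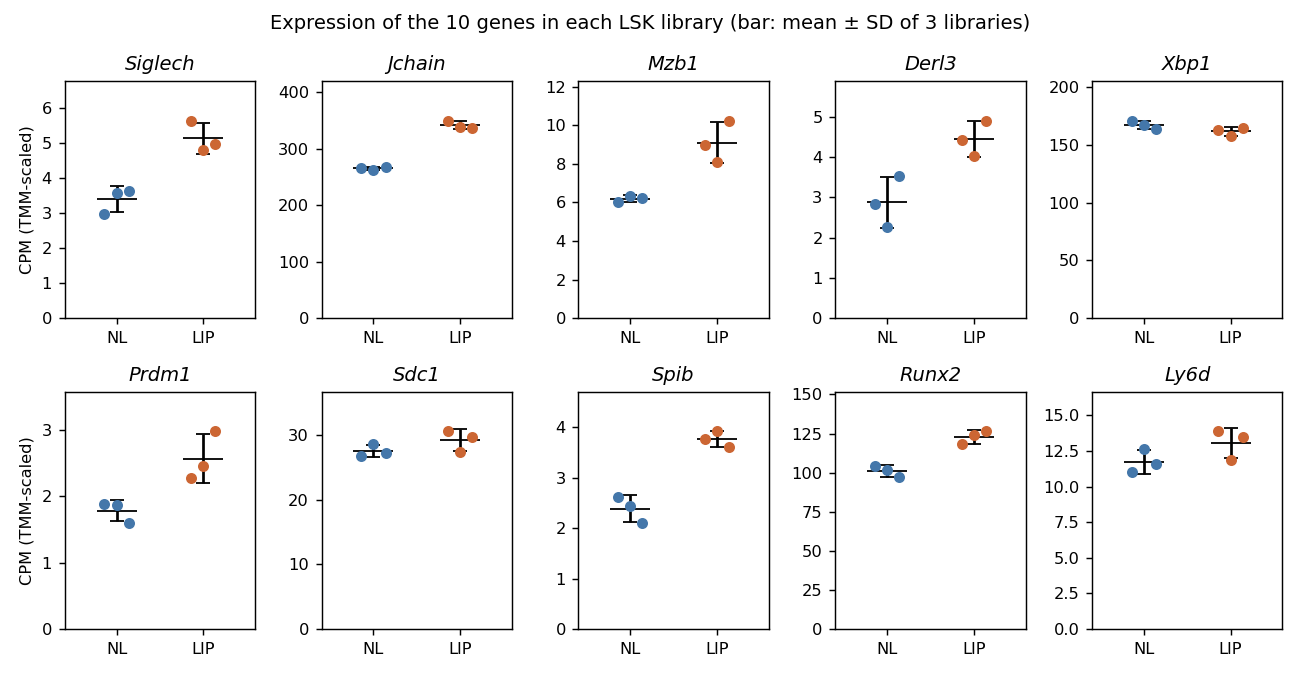
Expression of each gene as TMM-scaled CPM (vertical axes, each starting at 0) in the 3 NL (blue) and 3 LIP (orange) libraries, with points for libraries and bars for the mean ± SD. In 7 panels all LIP points lie above all NL points, and the groups overlap in Xbp1, Sdc1 and Ly6d.

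Among the genes of plasmacytoid dendritic cells, Siglech encodes a sialic acid-binding surface lectin used as a marker of these cells in mice. Its counts were 52, 63 and 64 in the NL libraries and 102, 92 and 95 in the LIP libraries, so even the lowest LIP library exceeded the highest NL library, by 1.32-fold on the CPM scale. The mean went from 3.39 ± 0.376 to 5.14 ± 0.442 CPM (SD over the 3 libraries of each group), and the log2 fold change was 0.60 ± 0.14 (SE). Siglech lies on chromosome 7, from 55768154 to 55779448 on GRCm38.p6. All LIP libraries stood apart from NL here at about the spread that counting alone gives, since the coefficient of variation was 11.1% in NL and 8.60% in LIP, and counting at this depth gives 12.9% and 10.2%.

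Spib encodes an ETS transcription factor of B cells and plasmacytoid dendritic cells, and lies on chromosome 7, from 44525995 to 44532087. Its counts were 46, 43 and 37 in NL and 68, 75 and 69 in LIP. The log2 fold change was 0.65 ± 0.17 (SE), from 2.39 ± 0.260 to 3.76 ± 0.158 CPM. The groups did not overlap, and the lowest LIP library was 1.38-fold above the highest NL library. With limma on log2(FPKM + 1), which shrinks differences between low values, the Spib value was 0.36.

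Runx2 encodes a RUNX transcription factor, best known from bone formation, that plasmacytoid dendritic cells need to leave the marrow. It lies on chromosome 17, from 44495987 to 44814797. Its counts were 1835, 1787 and 1707 in NL and 2137, 2372 and 2420 in LIP, without overlap. From 101 ± 3.67 to 123 ± 4.26 CPM, its log2 fold change was 0.28 ± 0.04 (SE), smaller than those of Siglech and Spib but measured on many more counts. Part of the locus overlaps Supt3 on the opposite strand, and no source used here states whether strand was used in counting. Supt3 stood at 34.9 ± 1.22 CPM in NL and 35.0 ± 1.07 in LIP.

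Ly6d encodes a small membrane-anchored protein that marks lymphoid progenitors leaning to the B lineage and precursors of plasmacytoid dendritic cells. It lies on chromosome 15, from 74762056 to 74763567. Its counts were 193, 223 and 204 in NL and 251, 227 and 258 in LIP, and the CPM ranges overlapped because LIP-2 at 11.9 CPM lay below NL-2 at 12.7. The log2 fold change was 0.15 ± 0.09 (SE), not called. Ly6d has the shortest effective transcript length of the 10, 604 bases as the authors' FPKM and counts imply. With an offset for the trend of each library on transcript length the value was 0.34 and was called, and it was also called with limma on log2(FPKM + 0.1) (0.20) and on log2(FPKM + 1) (0.19).

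Among the secretory genes, Jchain was by far the most abundant. It encodes the joining chain that links antibody units into polymers, and lies on chromosome 5, from 88519809 to 88527897. Its counts were 4672, 4629 and 4705 in NL and 6333, 6474 and 6446 in LIP. The NL libraries agreed to within 0.977% (coefficient of variation) and the LIP libraries to within 2.13%, and the lowest LIP library was 1.26-fold above the highest NL library. From 265 ± 2.59 to 342 ± 7.29 CPM, the log2 fold change was 0.36 ± 0.03 (SE).

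Mzb1 encodes an ER co-chaperone of antibody assembly in marginal zone B cells, plasma cells and plasmacytoid dendritic cells. Its counts were 106, 112 and 109 in NL and 162, 155 and 196 in LIP. The NL libraries lay closer together than counting alone gives (2.59% against 9.58%), while LIP-3 was the highest of all. The mean went from 6.20 ± 0.161 to 9.10 ± 1.08 CPM, a log2 fold change of 0.55 ± 0.11 (SE), without overlap. Spata24, a neighbour that the GENCODE annotation draws across this locus on the same strand, stood at 10.6 ± 1.08 CPM in NL and 9.46 ± 0.0913 in LIP.

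Derl3 encodes a derlin, a membrane protein that takes misfolded protein out of the ER, and its promoter holds the ER stress response element shown above. It lies on chromosome 10, from 75893398 to 75895941. Its counts were 50, 40 and 62 in NL and 80, 77 and 94 in LIP. The NL libraries varied most of any gene here (coefficient of variation 21.9%), and NL-3 at 3.53 CPM came close to LIP-2 at 4.03, so the gap between the groups was 1.14-fold. The log2 fold change was 0.63 ± 0.16 (SE), from 2.88 ± 0.630 to 4.45 ± 0.444 CPM, between 0.48 without NL replicate 2 and 0.80 without NL replicate 3.

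Xbp1, the transcription factor gene of the unfolded protein response, had a log2 fold change near 0 and of the opposite sign to the other secretory genes. It lies on chromosome 11, from 5520641 to 5525993. Its counts were 3005, 2946 and 2879 in NL and 2948, 3010 and 3149 in LIP, and the CPM ranges overlapped. From 167 ± 3.61 to 162 ± 3.78 CPM, the log2 fold change was -0.05 ± 0.03 (SE), not called. Gene counts do not separate the spliced Xbp1 mRNA that encodes the active factor from the unspliced one, so its activation was not measured.

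Prdm1 encodes a transcriptional repressor that drives B cells into plasma cells, and lies on chromosome 10, from 44437174 to 44528558. It had the fewest counts of the 10, with 33, 33 and 28 in NL and 41, 47 and 57 in LIP. The mean went from 1.78 ± 0.163 to 2.57 ± 0.368 CPM, a log2 fold change of 0.53 ± 0.20 (SE), and the groups did not overlap. Its call was the least stable of the 7 and was lost in 9 of 19 alternative analyses. Leaving out NL replicate 1, 2 or 3 or LIP replicate 2 or 3 ended it, with log2 fold changes of 0.57, 0.57, 0.46, 0.56 and 0.41 in that order. It was also lost with DESeq2 (0.53), the length offset (0.49), and limma on log2(FPKM + 0.1) (0.44) or log2(FPKM + 1) (0.16).

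Sdc1 encodes a surface heparan sulfate proteoglycan by which plasma cells are commonly sorted. It lies on chromosome 12, from 8771396 to 8793716. Its counts were 471, 505 and 478 in NL and 553, 523 and 568 in LIP. LIP-2, at 27.3 CPM, lay inside the NL range, and the log2 fold change of 0.08 ± 0.06 (SE) was not called. Leaving out 1 library moved the Sdc1 value between 0.05 (without LIP replicate 1) and 0.13 (without LIP replicate 2), without a call. The 3 members without a call were thus 1 transcription factor gene and 2 genes of surface proteins.

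**Figure D2:**
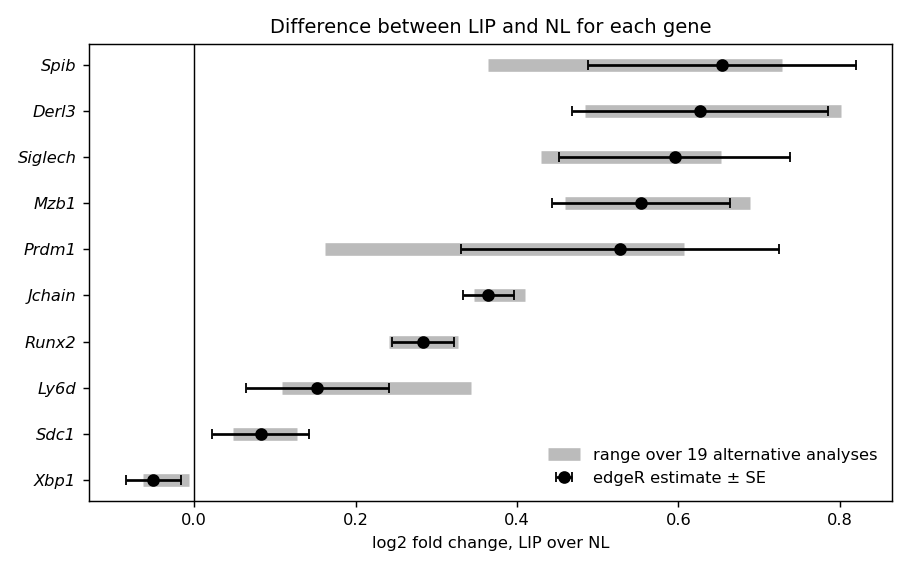
Log2 fold change of LIP over NL (horizontal axis) for each gene, with points and bars for the edgeR estimate ± SE and grey bands for the range over 19 alternative analyses. The bands of Spib, Derl3, Siglech, Mzb1, Prdm1, Jchain and Runx2 lie above 0, as do those of Ly6d and Sdc1, and that of Xbp1 lies below 0 (-0.06 to -0.01), although its TPM was higher in LIP.

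Between genes, levels can be compared only per length, for which the authors' TPM values (transcript abundance corrected for length) were used. In NL the order was Jchain (215 ± 3.11 TPM), Xbp1 (128 ± 3.18), Ly6d (31.8 ± 1.86), Runx2 (28.7 ± 0.931), Sdc1 (15.2 ± 0.446), Mzb1 (12.3 ± 0.190), Derl3 (3.90 ± 0.877), Siglech (2.67 ± 0.302), Spib (1.38 ± 0.143) and Prdm1 (0.570 ± 0.0520; SD, n = 3 each). Neighbours in this order did not overlap in the NL libraries, although the gap was narrow between Ly6d and Runx2 and between Derl3 and Siglech. In LIP the ranges of Ly6d and Runx2 overlapped, and so did those of Mzb1 (19.9 ± 2.15 TPM) and Sdc1 (17.6 ± 0.693), which had changed places. Over all libraries, 96.2% of tested genes had a lower mean TPM than Jchain and 91.4% a lower one than Xbp1, but only 5.21% lay below Prdm1, 11.9% below Spib and 17.6% below Siglech. These LSK pools thus held abundant Jchain and Xbp1 mRNA. The surface lectin and the lineage transcription factors Spib and Prdm1 lay near the low end of the genes tested, which leave out those removed for low counts.

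TPM gave a different picture of the direction, because the median tested gene was itself 0.13 higher in LIP on the log2 TPM scale. All 10 genes had every LIP library above every NL library in TPM, and 46.1% of all tested genes did too. Xbp1 went from 128 ± 3.18 to 134 ± 1.52 TPM, so its sign flips between the CPM and the TPM scale. Relative to the median shift Xbp1 was at -0.05, Sdc1 at 0.09 and Ly6d at 0.16 on the log2 scale, while Spib, Derl3 and Siglech were at 0.66, 0.62 and 0.60. Within a library the ratio of Jchain to Xbp1 TPM cancels a shift common to a library, and was 1.66, 1.67 and 1.74 in NL and 2.29, 2.29 and 2.18 in LIP. The ratio of Mzb1 to Xbp1 was 0.0923, 0.0985 and 0.0990 in NL and 0.144, 0.135 and 0.163 in LIP.

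**Figure D3:**
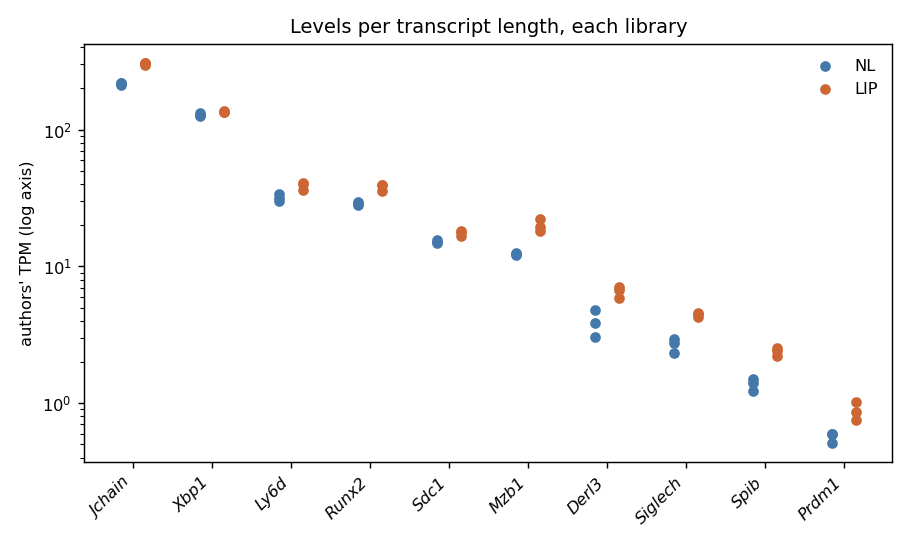
The authors' TPM for each gene in each library (log axis), with NL in blue and LIP in orange and genes ordered by their NL mean. Levels span from 215 TPM for Jchain to 0.570 TPM for Prdm1 in NL, and the order is nearly the same in LIP apart from Mzb1 and Sdc1.

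Relatives of the 10 genes in their families went both ways. This list and those that follow were also chosen with earlier results of these data known. Of 25 tested relatives 9 were called higher and 1 lower, with a median log2 fold change of -0.03. Runx3, a RUNX gene of dendritic and T cells, rose by 0.29, from 108 ± 2.94 to 132 ± 3.87 CPM (adjusted p = 6.42e-09 in edgeR), while Runx1, needed for blood stem cell formation, stood at 0.09 (adjusted p = 0.0818). Runx1 was called with library totals only (0.13) and without LIP replicate 1. Spi1, the myeloid and lymphoid relative of Spib that encodes PU.1, rose by 0.16 (adjusted p = 1.54e-04 in edgeR), whereas Spic stood at -0.18 (adjusted p = 0.459), between -0.33 without LIP replicate 2 and -0.01 without LIP replicate 3. In NL Spi1 had 155 times the TPM of Spib, and 109 times in LIP.

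The other derlins showed no call. Derl1 stood at -0.03 (adjusted p = 0.600) and Derl2, which lacks whole counts, at -0.11 (adjusted p = 0.118), both from edgeR. Derl1 turned positive with library totals only and on the FPKM scale, to at most 0.02. Derl3 was the least abundant of the derlins, at 0.0641 of the TPM of Derl1 in NL and 0.101 in LIP. Of the other syndecans, Sdc4 stood at -0.12 (adjusted p = 0.407), between -0.25 without LIP replicate 1 and -0.04 without NL replicate 2. The lectin gene Siglecf, a marker of eosinophils, rose by 0.29, and Ly6c2, a monocyte surface gene without whole counts, by 0.23 (0.38 with the length offset). No relative was called lower with DESeq2 or library totals only, once NL replicate 2 or LIP replicate 3 was left out, or on the FPKM scale, and 4 were with the length offset.

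Other genes of plasmacytoid dendritic cells went both ways. Of 19 tested, 6 were called higher and 2 lower, with a median of 0.15. Tcf4, which encodes the E protein that defines this lineage, stood at 0.01 (adjusted p = 0.807 in edgeR), from 121 ± 1.70 to 122 ± 1.98 CPM, and turned to -0.03 with the length offset. Bst2, an interferon-inducible surface protein, stood at -0.03 (adjusted p = 0.658). With the length offset it was called higher (0.14, adjusted p = 0.0195), and its sign also flipped with library totals only, on the FPKM scale and without NL replicate 3. Irf8, a transcription factor gene of dendritic cells and monocytes, rose by 0.28 from 199 ± 1.71 to 243 ± 5.65 CPM (adjusted p = 3.67e-10).

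Tlr9, the sensor of unmethylated DNA by which these cells detect microbes, rose by 0.79 from 2.43 ± 0.384 to 4.21 ± 0.182 CPM (adjusted p = 1.15e-04 in edgeR), Lair1 by 0.31 and Zeb2 by 0.17. On log2(FPKM + 1) the Tlr9 value was 0.41. The 2 falls were in Ccr9 and Cox6a2, which is named after its value was seen. Ccr9, a chemokine receptor gene, fell from 20.5 ± 1.87 to 16.8 ± 0.752 CPM, and its call was lost with limma on log2(FPKM + 0.1). Cox6a2, a respiratory chain subunit gene found in muscle and in plasmacytoid dendritic cells, had 8.94, 8.74 and 9.56 CPM in NL and 7.19, 6.74 and 6.38 in LIP, and its call was lost with the length offset (-0.22). Klk1 and Cd209d, markers of the mature cell, had 0 to 2 and 1 to 3 counts a library and were not tested. Over the whole list the summed level was 883 to 911 CPM in NL and 962 to 976 in LIP.

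Of 12 other plasma cell genes tested, 4 were called higher and 2 lower, with a median of 0.17. Pou2af1, a B-cell transcriptional coactivator, rose by 0.88 from 10.2 ± 0.502 to 18.8 ± 1.26 CPM (adjusted p = 6.88e-13 in edgeR). Irf4, a transcription factor gene required for plasma cells, rose by 0.45 from 6.27 ± 0.526 to 8.55 ± 0.384 CPM, Slamf7 by 0.48 (0.31 on log2(FPKM + 1)) and the ER oxidoreductase gene Txndc5 by 0.20. The falls were in Trp53inp1, by 0.25, and in the signal peptidase gene Sec11c, by 0.17, which was named after its value was seen. The Sec11c call was lost on the FPKM scale, without NL replicate 3 (-0.12) and with the length offset, where its value was 0.00018. Tnfrsf17, the survival receptor gene of mature plasma cells, had 8 to 21 counts a library and stood at 0.40 ± 0.32 (SE; adjusted p = 0.374), between 0.15 without NL replicate 3 and 0.64 without NL replicate 1. The antibody constant region genes looked up (Ighm, Ighg1, Ighg2b, Ighg2c, Igha, Igkc, Iglc1 and Iglc2) were absent from the deposited table by these symbols and were not analysed. The summed level of the list was 454 to 459 CPM in NL and 481 to 486 in LIP.

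The wider ER secretory and unfolded protein response list went both ways, with 7 of 28 tested genes called higher and 6 lower and a median of 0.03. With library totals only, 13 were higher and 6 lower. Dnajb9, a co-chaperone gene, fell by 0.46 from 45.7 ± 0.981 to 33.2 ± 0.308 CPM (adjusted p = 2.09e-10 in edgeR), and Hspa5, the main ER chaperone gene, fell by 0.16 from 695 ± 8.90 to 622 ± 13.1 CPM. Herpud1, which acts beside the derlins in removing misfolded protein, fell by 0.38. The translocon gene Sec61b fell by 0.25, but its value was -0.01 and its call was lost with the length offset. Ern1, which encodes the sensor kinase that splices Xbp1 mRNA, rose by 0.22 (adjusted p = 5.41e-04 in edgeR). The rise in Sec24d, which encodes a coat protein of vesicles leaving the ER and was named after its value was seen, was 0.26. The 5 other genes called higher, named after their values were seen, were the chaperone and folding genes Hyou1 (0.15), Pdia6 (0.12), Dnajb11 (0.13) and Calr (0.10) and Edem1 (0.12), which acts in removing misfolded protein. The other 2 called lower, also named after their values were seen, were Manf (-0.16) and the stress-induced transcription factor gene Ddit3 (-0.44). Among these, the Edem1 call was lost with DESeq2, with the length offset (0.07) and when NL replicate 1 or LIP replicate 2 was left out. The Calr call was lost when NL replicate 3 or LIP replicate 1 was left out.

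**Figure D4:**
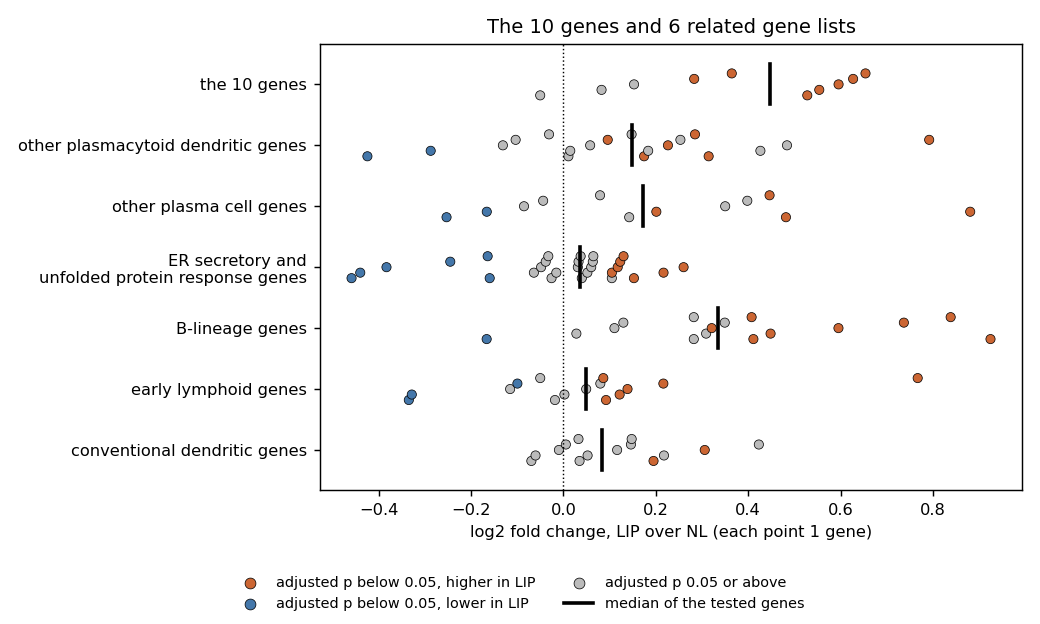
Log2 fold change of LIP over NL for the 10 genes and for the tested genes of 6 related lists, with each point 1 gene, orange for called higher, blue for called lower, grey for not called, and a black bar for the median of the row. The medians were 0.45 for the 10 genes, 0.34 for B-lineage genes and between 0.03 and 0.17 for the other 5 lists. Lists of other cells are not drawn, and their medians were 0.76 (neutrophil), 0.41 (monocyte), 0.41 (T and NK) and 0.06 (erythroid).

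Among B-lineage genes, 8 of 16 tested were called higher and 1 lower, with a median of 0.34 and a summed level of 125 to 131 CPM in NL and 151 to 153 in LIP. Vpreb3 rose by 0.92, Fcrla by 0.84, Pax5, the B-cell commitment factor gene, by 0.74 (adjusted p = 6.44e-06 in edgeR; 0.39 on log2(FPKM + 1)), and Blnk by 0.45. The fall was in Cd72, by 0.17, named after its value was seen. There was none with DESeq2, library totals only, the length offset, on the FPKM scale, among genes with whole counts only, or without NL replicate 2, LIP replicate 1 or LIP replicate 3. The mature B-cell marker Ms4a1 had 17 to 34 counts a library. Early lymphoid genes went both ways, with 6 of 15 called higher and 3 lower and a median of 0.05. Dntt fell by 0.33 and Rag2 by 0.33, Cecr2 rose by 0.77 (0.25 on log2(FPKM + 1)), and Il7r stood at 0.00 (adjusted p = 0.988 in edgeR). The third fall was in Gimap6, named after its value was seen, by 0.10, with overlapping groups. Its call was lost in 11 of 19 alternative analyses, DESeq2, limma-voom, library totals only and the length offset among them, and without NL replicate 2 or 3 or LIP replicate 1 or 3. The number called higher dropped to 3 when LIP replicate 2 was left out, and to 3 under the length offset.

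Of 14 conventional dendritic cell genes 2 were called higher and none lower in edgeR, with none lower at an unadjusted p below 0.05 or by DESeq2 or limma-voom. These were Cd74, which encodes the invariant chain of antigen presentation, by 0.31 and Sirpa by 0.20, and the median was 0.08. Over all tested genes 14.1% were called higher. The conventional dendritic markers Itgax, Zbtb46, Xcr1, Clec9a and Cd209a were not called in edgeR. Of the 14 genes, 4 were higher with library totals only and 5 with the length offset or on the FPKM scale. Markers of some other cells also moved with the groups. All 8 tested neutrophil genes and all 6 monocyte genes were called higher, with summed levels of 216 to 232 and 785 to 805 CPM in NL and 309 to 330 and 1021 to 1056 CPM in LIP. Of 7 tested T and NK cell genes 3 were called higher (136 to 145 CPM summed in NL, 152 to 166 in LIP). Most of that sum was Nkg7, at 125 ± 4.29 CPM in NL and 140 ± 7.23 in LIP. Of 6 erythroid genes 1 was called lower, and the summed levels overlapped (127 to 138 and 123 to 143 CPM). The median log2 fold changes were 0.76 for the neutrophil, 0.41 for the monocyte, 0.41 for the T and NK and 0.06 for the erythroid list. A shift like that of the 10 genes (median 0.45) was thus also seen in lists of other cells. No gene of these lists was at 0 in all libraries. The part of such cells in the values of the 10 genes was not tested.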

How the data were processed

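PolyA-selected RNA of 6 pools of sorted LSK cells was sequenced as 100 bp paired-end reads, per the labels' protocols. The table deposited for the series holds, per the file headers, estimated counts by the authors, part of them not whole, and the authors' FPKM and TPM. The submitters' processing notes name STAR, HTSeq and GRCm38 without saying which made each column. The estimated counts were rounded, filtered with filterByExpr and scaled with TMM factors. LIP was compared with NL by edgeR 4.0.16 (R 4.3.3) with the quasi-likelihood test, robust estimation, group as the only term and Benjamini-Hochberg adjustment over 12564 genes. SEs were derived from the test statistic. Alternatives used DESeq2 1.42.0, limma 3.58.1, other scaling and filters, a lowess length offset (span 0.3) and fewer libraries. At this depth 3 counts are 0.157 to 0.171 CPM, which covers counting error only.

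The 10 genes and all lists were chosen with earlier results of these data known. Named genes were the 10, a fixed panel and the 4 smallest p among called genes of each list, and others are said to be chosen later. Some genes that this rule takes in are not reported here. The 6 columns of group means were not used.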

Additional observations from a re-analysis of the deposited data

How the results depend on the processing

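Over 19 alternative analyses the count of the 10 genes called higher stayed at 6 or 7 and none was called lower. The log2 fold changes of Siglech (0.43 to 0.65), Jchain (0.35 to 0.41), Mzb1 (0.46 to 0.69), Derl3 (0.48 to 0.80), Spib (0.36 to 0.73) and Runx2 (0.24 to 0.33) kept their sign and call in all 19. Over all genes, 1167 were higher and 1317 lower with DESeq2, 2756 and 1301 with library totals only, and 1118 or 1108 lower with limma on log2(FPKM + 0.1) or log2(FPKM + 1). With DESeq2 the B-lineage and family lists had 0 lower genes. With library totals only there were 13 higher ER secretory, 4 higher conventional dendritic, 0 lower B-lineage and 0 lower family genes. With the length offset there were 1 lower plasmacytoid, 1 lower plasma cell, 0 lower B-lineage, 3 higher early lymphoid, 5 higher conventional dendritic and 4 lower family genes. On log2(FPKM + 0.1) there were 1 lower plasmacytoid, 1 lower plasma cell, 0 lower B-lineage, 5 higher conventional dendritic and 0 lower family genes, and log2(FPKM + 1) gave 1, 0, 5 and 0 for the last 4 of these. Genes with whole counts only gave 0 lower B-lineage genes. Leaving out 1 library gave 0 to 1 lower B-lineage, 0 to 1 lower family, 1 to 2 lower plasma cell and 3 to 6 higher early lymphoid genes. The sign of the log2 fold change reversed for Bst2 (0.0131 with library totals only, 0.137 with the length offset, 0.0184 and 0.0182 on the FPKM scales with 0.1 and 1 added, and -0.0526 to 0.00654 when 1 library was left out), Derl1 (0.0153 with library totals only, 0.0163 and 0.0159 on the FPKM scales), Tcf4 (-0.0255), Ly6a (0.0583) and Sec11c (0.000182) with the length offset, and Il7r (-0.00870 with the length offset, -0.0514 to 0.0487 when 1 library was left out). Of these reversed values only that of Bst2 with the length offset was called. The cause of these shifts was not tested. Deviations from the group means correlated at 0.0295, -0.0163 and -0.113 between same-numbered libraries 1, 2 and 3. Between libraries of different number the correlations were -0.112 to 0.132. With 3 libraries a group, these values cannot show whether the samples were paired. A replicate block gave 1750 higher and 1979 lower genes and 7 of the 10 genes higher. Depth limits Prdm1, Spib, Derl3 and Siglech most, at 28 to 102 counts a library.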
